A study of Mus musculus with 6 samples.

Results

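The MHC class I presentation genes described here are 10 genes, found by exact match of the gene symbol among the 39527 genes of the deposited comparison. They are 5 heavy chain genes (H2-K1, H2-D1, H2-Q4, H2-Q7 and H2-T23), the light chain gene B2m, the peptide transporter genes Tap1 and Tap2, the loading factor gene Tapbp, and the regulator gene Nlrc5. Each symbol had 1 row, and all 10 were among the 14961 genes that received an adjusted p, so that none was lost to the filter on low counts. RNA was sequenced from group 2 innate lymphoid cells (ILC2s), lymphocytes of type 2 immunity, sorted from mouse lung after 4 days of IL-33, an epithelial alarmin that activates them. One group of 3 samples came from R5/+ mice (WT) and the other of 3 samples from R5/+LKB1f/f mice (KO), so that the R5 allele was shared by both groups and floxed LKB1 set KO apart. LKB1, encoded by Stk11, is a kinase that activates AMPK. Each sample pooled 3 to 4 mice, and all had received IL-33. What R5 stands for, the cells in which a recombinase acts, and the strain and age of the mice were not given in the sources used here.

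MHC class I molecules carry peptides from proteins made inside a cell to its surface, where CD8 T cells and inhibitory receptors of NK cells and other lymphocytes read them. The proteasome cuts proteins into peptides, TAP1 and TAP2 pump them into the endoplasmic reticulum, and tapasin, the product of Tapbp, helps to load them onto a heavy chain bound to beta-2-microglobulin. H2-K1 and H2-D1 are the classical, highly polymorphic heavy chain genes, while H2-Q4, H2-Q7 and H2-T23 are non-classical. H2-T23 encodes Qa-1, which binds the CD94 and NKG2A receptor. NLRC5 is the transactivator of class I genes, and interferons raise the whole pathway in most cell types. Nearly all nucleated cells express class I genes, so that a bulk measurement also includes class I RNA of any other cell in the sort.

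Several class I promoters share a row of motifs, and the stretches below show it for the members whose fold changes are compared. Of the 10 members, 8 were matched in the RefSeq promoter table (GRCm38.p6), and Tap2 and Nlrc5 were not matched. Each line gives the 180 bases before the annotated start, 5′ to 3′ on the strand of the gene, with motif matches in capitals. H2-K1 lies at chr17:34000348-34000527 on the minus strand and H2-T23 at chr17:36032702-36032881 on the minus strand. On the plus strand lie H2-D1 at chr17:35262914-35263093, H2-Q4 at chr17:35379437-35379616, H2-Q7 at chr17:35438975-35439154 and B2m at chr2:122147507-122147686.
H2-K1: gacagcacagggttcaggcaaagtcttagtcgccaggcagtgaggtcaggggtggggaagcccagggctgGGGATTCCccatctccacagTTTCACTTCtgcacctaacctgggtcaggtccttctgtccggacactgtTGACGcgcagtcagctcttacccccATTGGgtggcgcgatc
H2-D1: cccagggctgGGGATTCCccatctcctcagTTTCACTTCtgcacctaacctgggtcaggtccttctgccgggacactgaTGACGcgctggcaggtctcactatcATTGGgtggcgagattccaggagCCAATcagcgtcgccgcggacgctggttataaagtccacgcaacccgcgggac
H2-Q4: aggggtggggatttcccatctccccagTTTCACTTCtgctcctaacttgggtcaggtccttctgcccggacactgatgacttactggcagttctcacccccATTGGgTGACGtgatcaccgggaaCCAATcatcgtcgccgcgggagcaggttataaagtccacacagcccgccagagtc
H2-Q7: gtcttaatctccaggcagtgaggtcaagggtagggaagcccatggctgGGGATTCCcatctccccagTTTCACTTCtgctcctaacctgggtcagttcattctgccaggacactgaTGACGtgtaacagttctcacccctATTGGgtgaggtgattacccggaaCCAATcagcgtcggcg
H2-T23: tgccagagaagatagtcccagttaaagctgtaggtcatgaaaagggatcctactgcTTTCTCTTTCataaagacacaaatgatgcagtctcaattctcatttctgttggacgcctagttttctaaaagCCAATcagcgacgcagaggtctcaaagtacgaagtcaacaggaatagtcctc
B2m: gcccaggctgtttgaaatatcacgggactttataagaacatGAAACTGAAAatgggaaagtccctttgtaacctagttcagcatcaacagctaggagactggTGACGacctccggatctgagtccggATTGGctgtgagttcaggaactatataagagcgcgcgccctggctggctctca

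The motifs searched on both strands were the interferon-stimulated response element (ISRE, the letters GAAA repeated after any 2 bases), a shorter form of it (GAANNGAAA), the gamma-activated site (GAS, TTCNNNGAA), the Y box (CCAAT), the X2 box or cAMP response element core (TGACG) and an NF-kB site (GGGATTCC). The shorter ISRE and the joint search below were added after these sequences were seen, and no match found in a member overlapped a match of another motif. In H2-K1 and H2-D1 the NF-kB match was followed 20 bases on by the short ISRE, and that by an inverted Y box (ATTGG) 74 bases on, counted from first base to first base. H2-Q7 had the same order at 19 and 73 bases. H2-Q4 had the short ISRE and the Y box 74 bases apart and no match to the NF-kB letters. The similar stretch ggggatttccc, a spelling not searched, preceded its short ISRE. H2-T23 and B2m held the full ISRE instead, and neither held the NF-kB or short ISRE letters. Only the spelling GGGATTCC of an NF-kB site was searched, so that sites with other letters were not counted. The stretch gggaaagtccc after the ISRE of B2m was therefore not assessed. Over the whole 300 bases, the NF-kB letters were found in 3 of the 8 member promoters and in 1.06% of 32851 promoters, and the short ISRE in 4 of 8 and in 7.52%. The full ISRE was found in 2 of 8 and in 3.44%, the X2 core in 6 of 8 and in 20.8%, the Y box in 8 of 8 and in 37.4%, and GAS in 0 of 8 and in 8.3%. NF-kB, short ISRE and Y box stood together in 10 promoters of the table (0.0304%), which belong to 9 symbols, among them H2-K1, H2-D1, H2-Q7 and the neighbouring H2-Q6. These matches are descriptions of letters, not of binding.

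The table gives 1 fold change and 1 standard error per gene, without stating which genotype is the numerator, so that signs are reported as deposited. Stk11, the gene floxed in KO, stood at -1.34 ± 0.30 (log2 fold change and SE) in the authors' deposited table, with an adjusted p of 0.000103 and a mean of 652.3 normalized counts. A negative sign is therefore the sign of Stk11, and a positive sign the opposite one, and the direction rests on this gene alone. An adjusted p below 0.05 is called positive or negative below, by its sign. Across all 14961 genes tested, 24.5% were called, 11.0% positive and 13.5% negative, with a median log2 fold change of -0.0056. The ILC2 label was checked on defining genes: Gata3 had a mean of 11199 normalized counts per kb of exon in the authors' deposited table, and the 15 tested genes of the ILC2 list had a median of 2497 per kb, from 97.2 (Thy1) to 22297 (Areg). Genes of other cells were also present: the 10 tested T cell genes had a median of 165.1 per kb, from 22.1 (Trat1) to 6066 (Trbc2), and the 7 tested epithelial genes 71.5, up to 7344 (Sftpc), in the authors' deposited table. The listed epithelial gene Scgb1a1 received no p-value and is not among these 7, although it had 7654 per kb in the authors' deposited table. The median over the 9 B and plasma cell genes was 60.1 per kb, up to 3322 (Ighm), in the authors' deposited table, beside 67.4 for all genes tested, and T cell receptor constant regions are also transcribed in innate lymphocytes. Per-sample values were not used here, so that the spread between samples enters only through the deposited standard errors. Whether the samples are separate pools of animals beyond the labels, and which libraries lie behind the fit, was not given in the sources used here.

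Among the class I members, 3 of the 5 heavy chain genes and Tap2 were called positive. Of the 10 members, 4 were called positive and 0 negative, beside 11.0% and 13.5% of all genes tested, and 39.7% called, 16.4% positive, among the most abundant 25% of genes, to which 9 of the 10 belong. The member outside it was H2-Q4. The median of the 10 was 0.30, beside -0.0056 for all genes tested and -0.04 for the most abundant 25%, and 8 of the 10 lay above 0. The changes were small: the largest, H2-K1, stood for a 1.53-fold difference with a 95% interval of 1.25 to 1.89.

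H2-K1 (ENSMUSG00000061232, mm10 chromosome 17, 33996017 to 34000347), a classical heavy chain gene, stood at 0.62 ± 0.15 (log2 fold change and SE) in the authors' deposited table, its adjusted p being 0.000645. The values and errors of the other genes below are on the same log2 scale. H2-D1 (ENSMUSG00000073411, chromosome 17, 35262730 to 35267499), the other classical heavy chain, had 0.42 ± 0.13 (SE) in the authors' deposited table, with an adjusted p of 0.0076. Both classical chains passed the threshold, on the side opposite to Stk11, but H2-D1 did not with the more conservative Benjamini-Yekutieli adjustment (adjusted p 0.0774). H2-Q4 (ENSMUSG00000035929, chromosome 17, 35379617 to 35385290), a non-classical chain of the Q region, had 0.55 ± 0.19 (SE) in the authors' deposited table, with an adjusted p of 0.0179, and lost its call with the Benjamini-Yekutieli adjustment (0.182) and at a threshold of 0.01. H2-Q7 (ENSMUSG00000060550, chromosome 17, 35439155 to 35443773), which encodes a Qa-2 antigen, had 0.39 ± 0.16 (SE) in the authors' deposited table and missed the threshold with an adjusted p of 0.0613. Its 95% interval of 0.07 to 0.71 overlapped those of H2-K1 (0.32 to 0.92), H2-D1 (0.17 to 0.67) and H2-Q4 (0.18 to 0.92). H2-T23 (ENSMUSG00000067212, chromosome 17, 36029773 to 36032855), the Qa-1 gene, had 0.03 ± 0.14 (SE) in the authors' deposited table, with an adjusted p of 0.904. Its interval of -0.25 to 0.31 lay just under that of H2-K1 and overlapped the others. The differences between members were not tested, since the deposited table holds no covariance between genes.

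Of the 5 members that are not heavy chains, Tap2 was called positive and the other 4 did not pass. B2m (ENSMUSG00000060802, chromosome 2, 122147686 to 122153083), the light chain shared by all these heavy chains, had 0.29 ± 0.15 (SE) in the authors' deposited table, with an adjusted p of 0.143. Its interval ran from 0.0007 to 0.58, so that a value as large as that of H2-D1 lay inside it. With trends on merged exon length and on GC content of the longest transcript removed, B2m, the shortest member, had 0.72 with an adjusted p of 3.1e-05, beside 0.72 for H2-K1 treated alike. That adjusted p kept the deposited standard error, with no error added for the fitted trends. The 860 bases of B2m lie below the median of 2021 in the shortest 25% of protein-coding genes. Tap2 (ENSMUSG00000024339, chromosome 17, 34203527 to 34216321), a subunit of the peptide transporter, had 0.31 ± 0.10 (SE) in the authors' deposited table, an adjusted p of 0.0122 and the smallest standard error of the 10. Its call was lost with the Benjamini-Yekutieli adjustment (adjusted p 0.124) and at a threshold of 0.01. Tap1 (ENSMUSG00000037321, chromosome 17, 34187553 to 34197225), its partner, had -0.05 ± 0.14 (SE) in the authors' deposited table, with an adjusted p of 0.825 and an interval of -0.33 to 0.22. The intervals of the transporter partners overlapped, since that of Tap2 ran from 0.11 to 0.51. Tapbp (ENSMUSG00000024308, chromosome 17, 33915899 to 33929292) had -0.04 ± 0.12 (SE) in the authors' deposited table, with an adjusted p of 0.858, and its interval of -0.27 to 0.19 did not overlap that of H2-K1. Nlrc5 (ENSMUSG00000074151, chromosome 8, 94434356 to 94527272), the transactivator, had 0.20 ± 0.16 (SE) in the authors' deposited table, with an adjusted p of 0.404 and an interval of -0.12 to 0.51. By role, 3 of the 5 heavy chains were called (median 0.42), and 1 of the 5 other members (median 0.20).

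**Figure D1:**
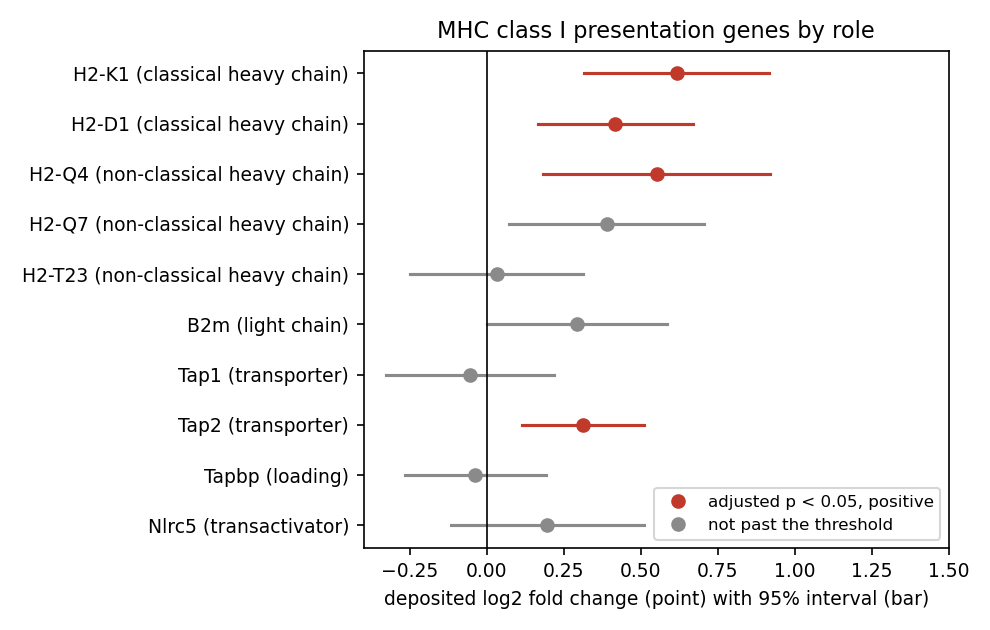
Deposited log2 fold changes (points) with 95% intervals (bars) of the 10 class I genes on the horizontal axis, by role, with genes past an adjusted p of 0.05 in red. H2-K1, H2-D1, H2-Q4 and Tap2 lie clear of 0, and Tap1, Tapbp and H2-T23 lie on it.

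H2-D1, H2-K1 and B2m were among the most abundant transcripts of the cells, while H2-Q4 ranked 5925 and Nlrc5 1701 by mean count. H2-D1 had the highest mean of the 14961 genes tested, 153513 normalized counts in the authors' deposited table. H2-K1 ranked 4 and B2m 9 of the genes tested, with 90512 and 71972. The 10 members together made up 2.07% of the summed mean counts, and H2-D1, H2-K1 and B2m alone 1.79%. Per kb of merged exon, B2m ranked 2 of the 14928 tested genes with an exon length, at 83688 normalized counts per kb, H2-D1 ranked 4 with 59524 and H2-K1 ranked 9 with 30807. H2-Q7 followed with 4891 and H2-T23 with 3089 normalized counts per kb, then Tapbp with 2413. Tap1 had 872, Tap2 766, Nlrc5 261 and H2-Q4 187 normalized counts per kb. The merged exons cover every annotated exon of a gene, from 860 bases in B2m to 8493 in Nlrc5. The members called positive thus spanned the range of levels, from H2-D1 to H2-Q4.

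**Figure D2:**
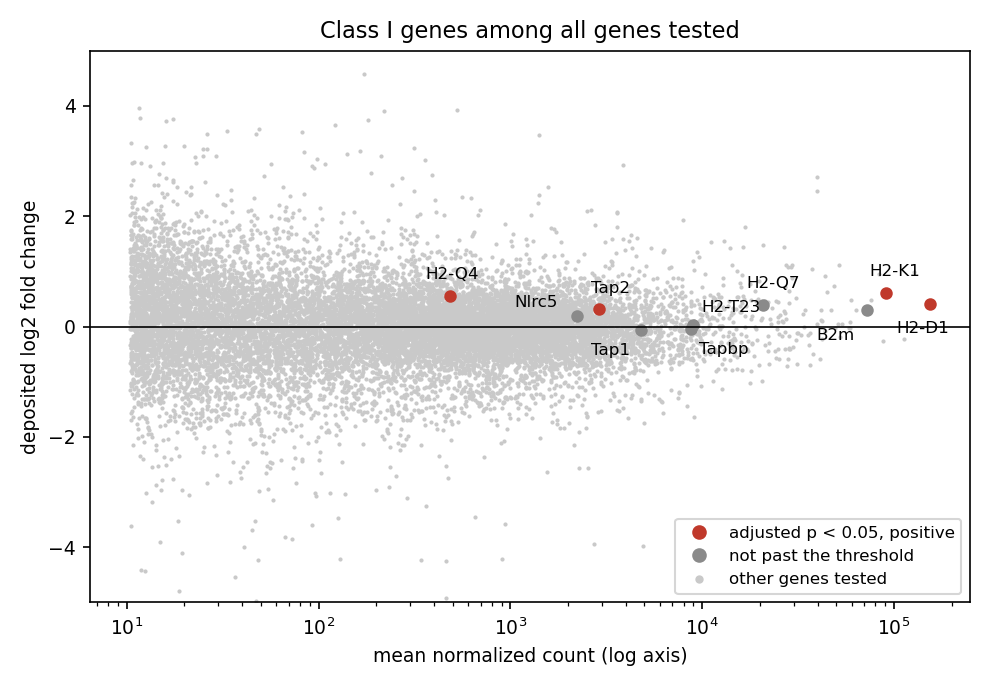
Mean normalized count (horizontal, log axis) against deposited log2 fold change (vertical) for all genes tested (pale points), with the class I genes marked. The 33 genes beyond a log2 fold change of 5 in either direction are outside the frame, and H2-D1, H2-K1 and B2m sit at the far right, above 0.

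Class I genes resemble one another, so that short reads can match several of them, and how such reads were counted was not given in the sources used here. Of the distinct 50-base stretches in the coding transcripts of H2-Q4, 39.2% also occurred in a transcript of another annotated gene, on either strand, and of H2-Q7 34.9%. The share was 29.8% for H2-T23, 13.9% for H2-D1 and 6.87% for H2-K1, and 0% for B2m and Nlrc5. Tapbp shared 22.4% at 50 bases and 12.7% at 100 bases, chiefly with the antisense gene Gm19412. At 100 bases the shares fell to 13.9% for H2-Q4, 17.2% for H2-Q7, 7.28% for H2-T23, 4.09% for H2-D1 and 0% for H2-K1. At that length the chief partners were H2-Q6 (9.34%) and H2-Q5 (7.87%) for H2-Q7, and the antisense gene Gm11131 (11.1%) for H2-Q4. The values of H2-Q4, H2-Q7 and H2-T23 are therefore uncertain as values of single genes, while most stretches of H2-K1 and H2-D1 were found in no other gene. Read length was not given in the sources used here.

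**Figure D3:**
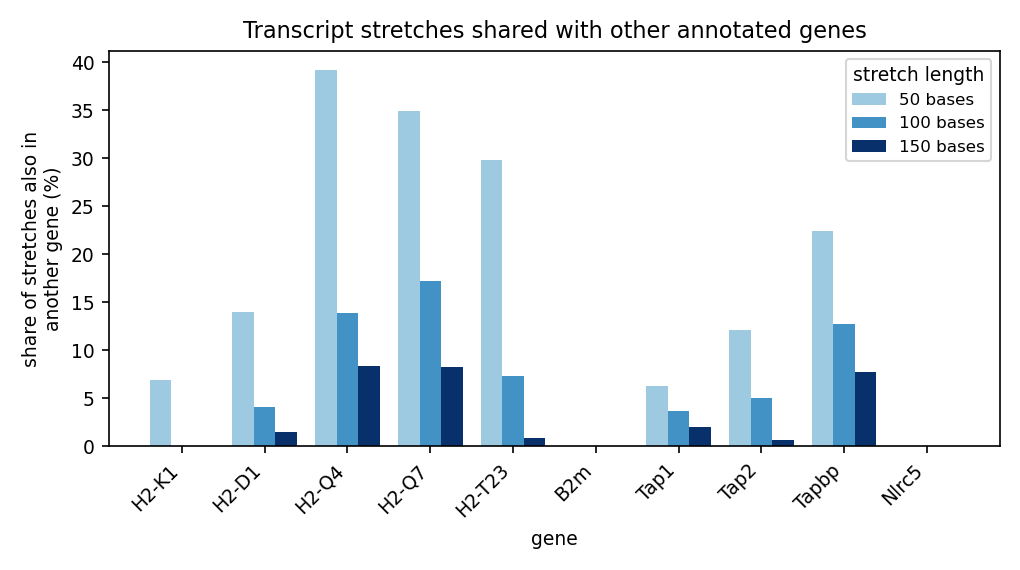
Share (percent, vertical) of the 50-, 100- and 150-base stretches in the coding transcripts of each class I gene that also occur in a transcript of another annotated gene. H2-Q4, H2-Q7 and H2-T23 share most at 50 bases, and B2m and Nlrc5 share none.

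Overlapping genes bear on other members, because the handling of strand was not given in the sources used here. B2m lies inside Patl2 on the opposite strand, and Patl2, with a mean of 59.6 normalized counts, had 1.58 ± 0.44 (SE) in the authors' deposited table, an adjusted p of 0.0026. Tap1 overlaps Psmb9 by 212 bases on the opposite strand, and Psmb9, with a mean of 2846, had -0.32 ± 0.13 (SE) in the authors' deposited table, an adjusted p of 0.0522. Tapbp overlaps Zbtb22 on its own strand over 3422 bases, and Zbtb22 had 0.13 ± 0.22 (SE) in the authors' deposited table. Gm19412, on the opposite strand, overlaps Tapbp over 1207 bases and had a mean of 0.11 normalized counts in the authors' deposited table. H2-T23, Tap2, H2-Q4 and Nlrc5 also overlap noncoding genes on the opposite strand, while H2-K1 and H2-D1 overlap no annotated gene.

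Of 10 other class I heavy chain genes tested, 4 were called positive and 1 negative, beside 11.0% and 13.5% of all genes. Their median was 0.38 beside -0.0056 for all genes, and 3 of the 10 lay below 0. H2-M3, which presents formylated peptides, had 0.47 ± 0.16 (SE), H2-T10 0.49 ± 0.16 and H2-T24 0.79 ± 0.29 in the authors' deposited table, all called positive. H2-Q5 was called positive as well, at 0.51 ± 0.20 (SE) in the authors' deposited table, and the abundant H2-Q6 had 0.43 ± 0.19 with an adjusted p of 0.0776. The negative call was H2-M2, at -2.23 ± 0.86 (SE) in the authors' deposited table on a mean of only 14.3 normalized counts. Over all 15 heavy chain genes tested, members included, the 11 with a mean of at least 100 normalized counts all lay above 0, between 0.03 and 0.79, and 7 of them were called positive. The remaining 4, below 100, had values from -2.23 to 0.23. H2-K2, an annotated pseudogene next to H2-K1 that was picked out after its value was seen, had 0.66 ± 0.20 (SE) in the authors' deposited table, an adjusted p of 0.0084. Adjusted over every gene with a p-value, 2 of the 4 positive calls were left and the negative call was lost.

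Class I-like genes had means of only 36.0 to 456.8 normalized counts in the authors' deposited table. Of 8 tested, 2 were called positive and 0 negative (median 0.34), beside 11.0% and 13.5% of all genes tested. The 2 were Procr, the endothelial protein C receptor, at 1.40 ± 0.49 (SE) and H60b, an NKG2D ligand, at 1.02 ± 0.37 in the authors' deposited table. Mr1, which presents vitamin B metabolites to MAIT cells, had 0.39 ± 0.24 (SE) and Cd1d1, which presents lipids, 0.21 ± 0.19 in the authors' deposited table, and neither passed. Adjusted over every gene with a p-value, neither Procr nor H60b passed.

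Genes of the proteasome, which cuts the peptides, were called negative where they passed. All 14 tested genes of the constitutive 20S core of the proteasome were called negative, with a median of -0.61 beside 13.5% called negative and a median of -0.0056 over all genes. The largest were Psma5 at -0.90 ± 0.18 (SE), Psmb5 at -0.87 ± 0.18 and Psma4 at -0.77 ± 0.14 in the authors' deposited table. Immunoproteasome subunits, proteasome activators and the assembly factor made up a list of 8 genes, of which 3 were called negative and 0 positive, and all 8 lay below 0 (median -0.35). Among the most abundant 25% of genes, to which 7 of these 8 and 13 of the 14 core genes belong, 23.4% were called negative. Pomp, the assembly factor, had -0.48 ± 0.12 (SE), the catalytic subunit Psmb8 -0.40 ± 0.14 and the activator Psme3 -0.37 ± 0.14 in the authors' deposited table. The interferon-inducible subunits Psmb9 and Psmb10 had -0.32 ± 0.13 (SE) and -0.26 ± 0.14 in the authors' deposited table and did not pass. The constitutive subunits that they and Psmb8 replace, Psmb6, Psmb7 and Psmb5, had -0.60, -0.69 and -0.87 in the authors' deposited table, all called negative. Adjusted over every gene with a p-value, Psmb8, Psme3 and, of the core, Psma1 were not called. Psma1 also failed at a threshold of 0.01, and Psma1 and Psmb3 with the Benjamini-Yekutieli adjustment. With length and GC trends removed, 10 of the 14 core genes were called negative, without Psma1, Psma6, Psmb2 and Psmb3. The list of 8 then had 1 negative call, without Psmb8 and Psme3.

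Chaperones and peptidases of the pathway were called negative in 4 and positive in 0 of 16 genes tested, with a median of -0.16. That share is close to the 23.4% called negative among the most abundant 25% of genes, to which 13 of the 16 belong. The cytosolic peptidases Blmh, Thop1 and Lap3, which trim or destroy peptides, had -0.65 ± 0.14 (SE), -0.91 ± 0.22 and -0.70 ± 0.18 in the authors' deposited table. Pdia6, a disulfide isomerase of the endoplasmic reticulum, was the fourth negative call, at -0.61 ± 0.20 (SE) in the authors' deposited table. The partners of tapasin in the loading complex did not pass: calreticulin (Calr) had -0.45 ± 0.18 (SE), with an adjusted p of 0.055, and Pdia3 -0.18 ± 0.13 in the authors' deposited table. Tapbpl, the tapasin-related editor, had 0.30 ± 0.16 (SE), with an adjusted p of 0.146, and Erap1, which trims peptides in the endoplasmic reticulum, 0.0007 ± 0.10 in the authors' deposited table.

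Among genes known to regulate class I promoters, 3 were called positive and 3 negative of 21 tested, with a median of -0.02. These shares are near the 11.0% and 13.5% of all genes tested. Rfx5, the DNA-binding subunit of the complex that recruits NLRC5 and CIITA, had 0.62 ± 0.22 (SE), and its partner Rfxap had -0.48 ± 0.16 in the authors' deposited table. Rfxank, the remaining subunit, had 0.29 ± 0.18 (SE) in the authors' deposited table and did not pass. Nfyb, a subunit of the factor that binds the Y box, had -0.52 ± 0.17 (SE), and Irf1, which binds the ISRE, 0.36 ± 0.14 in the authors' deposited table. Ezh2, the Polycomb methyltransferase, had -0.87 ± 0.15 (SE) and the coactivator Ep300 0.31 ± 0.12 in the authors' deposited table. Nfkb1, the most abundant gene of the list, had -0.29 ± 0.15 (SE) in the authors' deposited table and did not pass. Adjusted over every gene with a p-value, the 3 positive calls were lost.

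Interferon genes were measured beside the class I genes, which they induce. Of 17 genes of interferon signalling, 7 were called positive and 1 negative (median 0.36), and of 35 interferon-stimulated genes 12 and 1 (median 0.49), beside 11.0% and 13.5% of all genes. Usp18, a feedback inhibitor of the type I receptor, had 1.62 ± 0.22 (SE), Irf7 0.87 ± 0.16 and Irf9 0.73 ± 0.14 in the authors' deposited table. The receptor chains Ifngr1 and Ifnar2 had 0.54 ± 0.12 (SE) and 0.59 ± 0.13 and the kinase Jak1 0.46 ± 0.13, while Ifnar1, the negative call, had -0.60 ± 0.18 in the authors' deposited table. Among the stimulated genes, Ddx58, the RNA sensor RIG-I, had 0.88 ± 0.15 (SE), Rtp4 1.58 ± 0.29 and the guanylate-binding protein gene Gbp3 -1.06 ± 0.18 in the authors' deposited table. Samhd1, the most abundant of them, had 0.08 ± 0.13 (SE) in the authors' deposited table and did not pass. Interferon gamma itself was near the floor of the test, with a mean of 24.5 normalized counts in the authors' deposited table. The sign of these lists was shared with the heavy chains, and the part of either in the other was not tested.

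**Figure D4:**
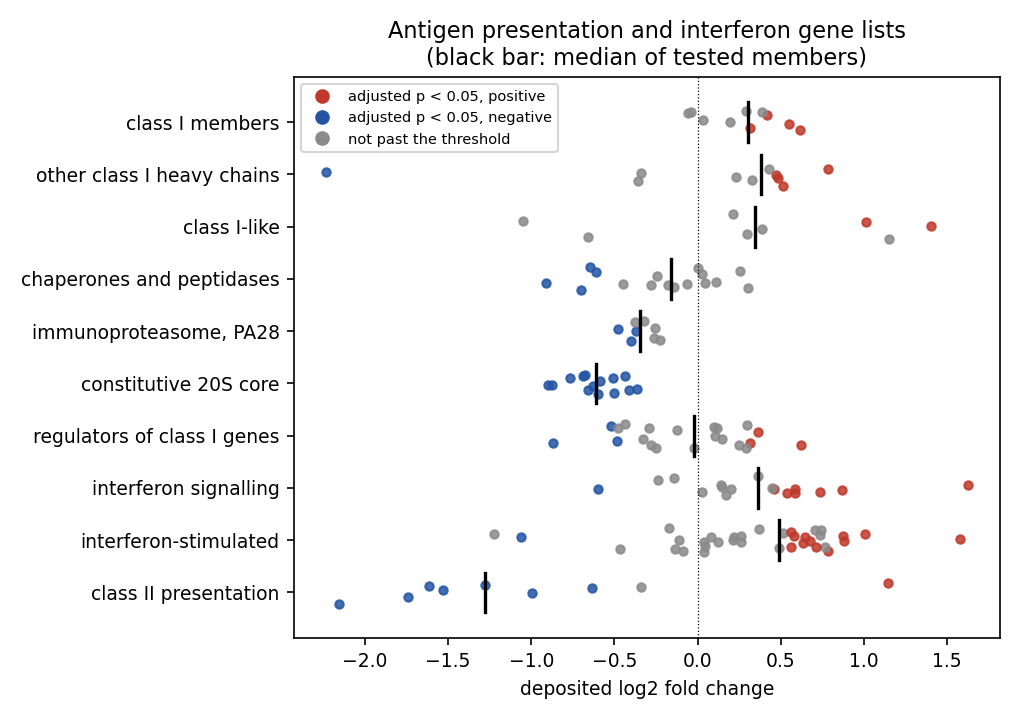
Deposited log2 fold changes (horizontal) of tested genes in 10 gene lists, 1 point per gene with arbitrary vertical scatter within a row, coloured by call, with the median as a black bar. The medians of the class I lists and interferon lists lie above 0, those of the proteasome and class II lists below it.

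MHC class II genes, which present peptides of ingested proteins, had larger values of the opposite sign. Of 9 tested, 7 were called negative and 1 positive (median -1.28), beside 13.5% and 11.0% of all genes. H2-Ab1 had -1.74 ± 0.22 (SE), H2-Eb1 -1.62 ± 0.23, H2-Aa -1.53 ± 0.23 and the invariant chain gene Cd74 -0.99 ± 0.21 in the authors' deposited table. H2-Oa, a chain of the inhibitor of class II loading, was the positive call at 1.14 ± 0.24 (SE) in the authors' deposited table. Ciita, the class II counterpart of Nlrc5, had 0.10 ± 0.31 (SE) in the authors' deposited table and did not pass. The 7 negative values lay between -2.15 and -0.63, below the lowest value of any class I member, -0.05.

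Markers of other cell types, where called, had the sign of the class II genes, not of the class I genes. B and plasma cell markers were called negative in 4 of 9 (median -1.13), beside 13.5% of all genes, dendritic cell markers in 3 of 10 (median -0.26), T cell markers in 3 of 10 (median -0.43) and NK and ILC1 markers in 2 of 6 (median 0.20). Macrophage markers were called negative in 1 of 13 (median -1.03), fibroblast markers in 1 of 9 (median -1.57), and epithelial and endothelial markers in 0 of 7 (median -1.18) and 0 of 9 (median -0.68). None of these 8 lists had a positive call, but several held uncalled values above 0. These were 4 of 6 NK and ILC1, 4 of 10 dendritic, 2 of 10 T cell, 3 of 13 macrophage and 2 of 7 epithelial markers. The 2 NK and ILC1 calls were the granzyme genes Gzma and Gzmb. Ighm had -1.56 ± 0.53 (SE), Ccr7 -2.57 ± 0.21 and C1qa -2.63 ± 0.78 in the authors' deposited table, of which Ccr7 is also a gene of lymphocytes. The ILC2 list was called positive in 3 and negative in 3 of 15 (median 0.13), beside 11.0% and 13.5% of all genes tested. Gata3 had 0.63 ± 0.16 (SE) and Il13 -1.06 ± 0.18 in the authors' deposited table. The part of other cells in the class I values was not tested, and a change in the number of cells of a type cannot be told apart from a change in RNA per cell.

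Most genes listed as receptors of class I molecules received no adjusted p. Of 20 listed, 6 were tested, with 2 called positive and 2 negative, beside 11.0% and 13.5% of all genes tested. Lilrb4a had 0.95 ± 0.22 (SE), and Klrk1, which encodes NKG2D, 1.62 ± 0.31 in the authors' deposited table. Lilrb4a was listed for its family, the inhibitory leukocyte immunoglobulin-like receptors, not for a known class I ligand. Cd160 had -2.11 ± 0.32 (SE) and Cd244, listed with them although its ligand CD48 is no class I molecule, -1.27 ± 0.43 in the authors' deposited table. Klrc1 and Klrd1, which encode the NKG2A and CD94 chains that bind Qa-1, had means of 9.26 and 7.12 normalized counts in the authors' deposited table and received no adjusted p.

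Of the 10 members, 8 lie on chromosome 17, within the H2 complex, from 33915899 to 36032855 (2.12 Mb, from Tapbp to H2-T23). Of 104 tested genes in that span, 21 were called positive and 20 negative, with a median of -0.07. Of all genes tested, 11.0% were called positive and 13.5% negative, with a median of -0.0056. Without heavy chains, other members and class II genes, 82 genes were left, with 14 called in each direction and a median of -0.09. Class II genes lie between H2-K1 and H2-D1, so that genes of opposite sign alternate along the chromosome: H2-K1 was called positive, 6 of 8 class II genes of the span negative, and H2-D1, 1.26 Mb from H2-K1, positive. Tap1 and Tap2 lie among the class II genes, 187 and 203 kb from the start of H2-K1, and neither had a negative call.

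**Figure D5:**
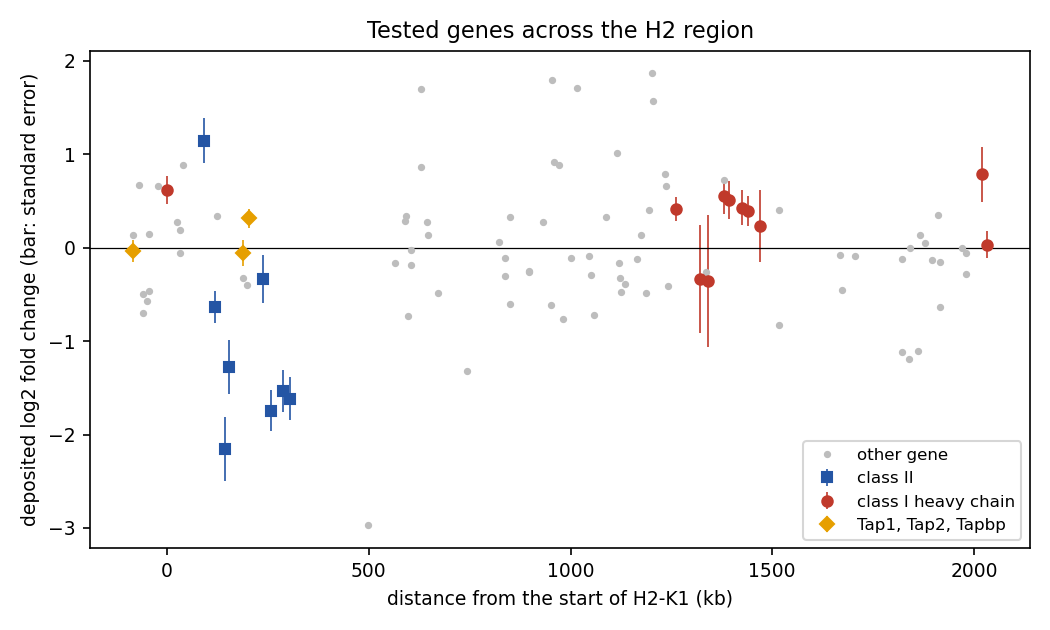
Deposited log2 fold change (vertical, bars show the standard error for marked genes) of tested genes by distance of their start from that of H2-K1 in kb (horizontal). Class II genes lie between 92.0 and 305.5 kb, mostly below 0, and heavy chains near 0 kb and from 1262 kb on, mostly above 0.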

How the data were processed

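Lung ILC2s of 3 WT and 3 KO samples were sequenced from SMART-Seq HT cDNA, per the labels' protocols, and HISAT2, Cufflinks and mm10 are named in the submitters' processing notes, without versions. The counting tool, annotation, filters and strand handling were not given in the sources used here. Per the file headers, each deposited row holds the authors' mean signal (normalized counts), their log2 fold change with its standard error (log2 too), a score, its p-value and that p-value after adjustment. When recomputed, the deposited score was a Wald ratio (largest difference 2.4e-07), the p-value came from a 2-sided normal test (5.0e-08) and its adjustment from the Benjamini-Hochberg method (7.6e-07). Adjusted p-values were present for 14961 genes, with means of at least 10.46. Another 12 columns hold values of single libraries whose 6 names match none of the labels; these were left out, so that the planned count fit on single samples was replaced by the authors' comparison. Depth per sample was not used, and precision is that of the standard errors (median 0.233 over genes tested, 0.145 in the most abundant 25%). Intervals are 95% normal intervals.

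The members, the 19 gene lists around them and the rule for named genes were chosen with earlier results of these data known. The rule took all members and Stk11, the 3 smallest p in each list (1 where no gene was called or in marker lists) and the most abundant gene; further list genes were named after their values were seen. Coordinates and merged exon lengths came from GENCODE M21 (mm10), in which 39237 identifiers (99.27%) were found, promoters from RefSeq (GRCm38.p6). Identity between member proteins was planned and not run. Alternatives changed the genes adjusted over, the adjustment, the threshold, the centring, and removed lowess trends on exonic length and on GC content of the longest transcript. The trend removal covered protein-coding genes only and kept the deposited standard errors. The adjustment and call steps were tested on simulated data. The steps used statsmodels 0.14.6, scipy 1.17.1, pandas 2.3.3, numpy 2.4.6 and matplotlib 3.10.9 under Python 3.11.15.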

Additional observations from a re-analysis of the deposited data

How the results depend on the processing

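The count of members called negative was 0 under all 7 alternatives run, and the count called positive was between 1 and 6. It was 1 with the Benjamini-Yekutieli adjustment, under which H2-K1 passed and H2-D1 (0.42, adjusted p 0.0774), Tap2 (0.31, 0.124) and H2-Q4 (0.55, 0.182) did not, and 2 at a threshold of 0.01, under which Tap2 (0.31) and H2-Q4 (0.55) did not pass. H2-Q7 passed among genes with a mean of at least 100 (0.39, adjusted p 0.046), when values were centred on the most abundant 25% (0.43, 0.037) and when length and GC trends were removed (0.42, 0.0431). Removal of these trends also moved B2m, the shortest member, from 0.29 to 0.72 (adjusted p 3.1e-05), so that 6 members were then called positive; over protein-coding genes the median log2 fold change was -0.24 for the shortest 25% and 0.15 for the longest 25%. The value of Samhd1, not called, was -0.037 under that removal. No member value changed sign. Over all genes, 2008 were called with the Benjamini-Yekutieli adjustment and 2363 at 0.01, against 3668. Under those stricter rules the calls fell to 0 for other heavy chains (from 4 positive, 1 negative), to 0 for class I-like genes (from 2), to 1 for the immunoproteasome list (from 3), to 1 negative and 0 positive for the regulators (from 3 and 3), to 1 negative for class I receptors (from 2) and to 1 for B cell markers (from 4). The negative calls of Ifnar1 and of the macrophage list were lost with Benjamini-Yekutieli but not at 0.01. Adjusted over every gene with a p-value, the other heavy chains had 2 positive and 0 negative calls, the class I-like genes 0, the immunoproteasome list 1 and the regulators 0 positive. With a minimum mean of 100, the class I-like and macrophage calls and the negative heavy chain call were lost, and class I receptors had 1 call in each direction. Among protein-coding genes only, 2 other heavy chains were positive. Without the length and GC trends, which were removed among protein-coding genes only, the immunoproteasome list had 1 negative call and the B cell list 2. The other heavy chains had 0 negative calls and 4 positive, with H2-Q6 and H2-T22 gained and H2-M2 lost. H2-Q5, H2-T10 and Ighm were not called there either, but they were already lost among protein-coding genes only, with no trend removed. With the trends removed, the chaperone list had 1 positive call (from 0) and the ILC2 list 5 (from 3). The 20S core had between 10 and 14 negative calls over the 7 alternatives, with 10 when length and GC trends were removed. The columns of single libraries were left out because their names match no label, so that fits without a sample, in another count tool or with other size factors were not run. No paired analysis was possible because the columns carry no replicate numbers.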
